A study of Rattus norvegicus with 6 samples.

Results

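Ribosome biogenesis starts in the nucleolus, where RNA polymerase I transcribes the ribosomal DNA into a long precursor RNA. Small nucleolar ribonucleoproteins (snoRNPs) modify this RNA, and large assemblies of processing factors cut it and fold it into the small and the large ribosomal subunit. Dividing cells need a steady supply of new ribosomes, and the transcription factor MYC is a known activator of many of these genes. The list examined here holds 41 genes for nucleolar processing factors and the RNA polymerase I machinery. Its members are named genes of this pathway, picked with earlier results of these data known but by no measured threshold, and 40 of the 41 names were found among the 32883 genes of the deposited table. Heatr1 was not found by its name and was not analysed here.

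The cells were oligodendrocyte precursor cells (OPCs), the dividing glial cells that give rise to oligodendrocytes, cultured from the cerebral cortices of newborn Sprague Dawley rats (P0 by the labels, with a slightly wider range of days in the study's methods). Both groups were grown in mixed culture, shaken off, replated in Neurobasal with B27 and N2, and then given either 5 µM ZJU-37, an inhibitor of the kinase RIPK1, or an equal volume of its solvent DMSO for 36 h by the labels (the study's methods give a shorter time). Poly-A RNA of 3 libraries per group was sequenced. The labels do not say whether the libraries of a group came from separate cultures, and the study calls them biological repeats in its methods and plate wells in a legend, so that the p-values measure the spread between these libraries, which may be technical. Microglia were shaken off first, no sort is described, and other glia can remain in such a culture. Library totals ran from 13935865 to 24097927 counts, and apart from Nhp2 every member found had at least 246 counts in every library. Levels are given as CPM, counts relative to the library total on the TMM scale, which corrects for library composition, or, for comparisons between genes, as the deposited FPKM, which also divide by gene length. Where a gene is given in every library, the 3 values of a group stand in the order of its replicates 1, 2 and 3, and ± after a log2 fold change is its standard error.

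All 40 members found passed the filter on low counts and were tested among 14670 genes. With ZJU-37, 8 members were higher at an adjusted p-value under 0.05 (edgeR's quasi-likelihood test, Benjamini-Hochberg over all tested genes), 0 were lower and 32 did not pass. This was 20% of the members, beside 9.43% of all tested genes that were higher and 5.58% that were lower. Of the abundant genes, those with a mean of at least 25 CPM (a level chosen after the data were seen), 12.3% were higher and 8.03% lower. The 8 members were Rrp1b, Nop58, Nop56, Npm1, Rrn3, Utp20, Fbl and Ubtf, and their increases were small, from 16.3% for Ubtf to 26.5% for Rrp1b. The median log2 fold change of the 40 members was 0.08, beside -0.03 for all tested genes, and 29 members had a positive and 11 a negative value. Without adjustment, 14 members were higher and 1 was lower at a p-value under 0.05 (edgeR), beside 2372 and 1833 of the 14670 tested genes. DESeq2 and limma-voom each called 8 members higher and 0 lower, and in DESeq2 Ncl passed and Utp20 did not. Of the same 14670 genes, DESeq2 called 1521 higher and 1042 lower, and limma-voom 1370 and 822.

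The 8 calls were close to the threshold, with adjusted p-values from 0.0116 to 0.0471 (edgeR). When 1 library was left out, fewer members passed. The number was 1 without DMSO replicate 1, without DMSO replicate 3 and without ZJU-37 replicate 2. In these fits 1116, 932 and 1208 of all tested genes were higher. It was 3 members without DMSO replicate 2 and without ZJU-37 replicate 3, beside 858 and 977 genes. Without ZJU-37 replicate 1 it was 4 members, beside 1259 genes. The fits with 1 library left out tested from 14871 to 14940 genes. Nop58 was the member that passed in all 6 of these fits. Same-numbered DMSO and ZJU-37 libraries deviated together, and a fit with that number as a block called 15 members (37.5%) higher and 1 lower, beside 16.2% and 15.9% of all tested genes. All 8 members named above were among these 15, with adjusted p-values from 9.79e-04 for Nop56 to 0.0129 for Utp20 (edgeR with the block). In 16 members (40%) all ZJU-37 libraries lay above all DMSO libraries, as in 19.0% of all tested genes, and in 2 members they lay below, as in 16.2% of all tested genes.

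**Figure D1:**
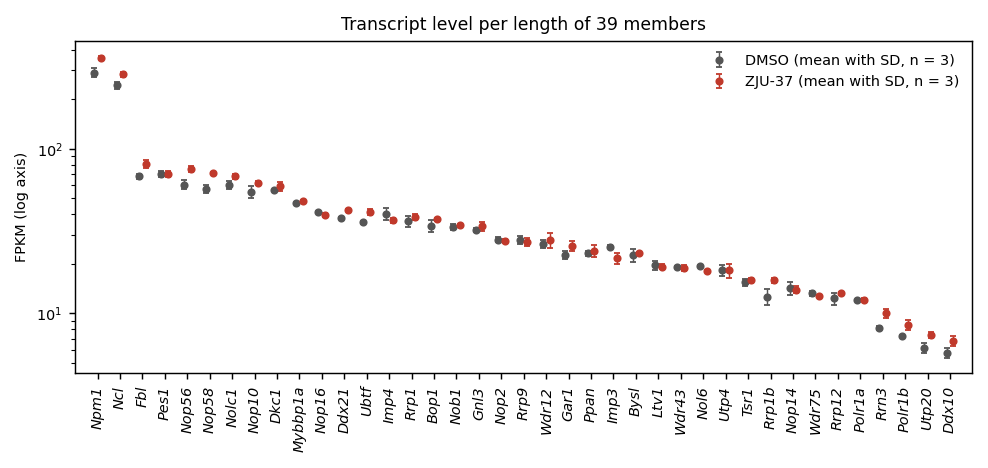
Transcript level of 39 members in FPKM on a log axis, ordered from the highest to the lowest mean over the 6 libraries, with points for the group means and bars for the SD of 3 libraries. Npm1 and Ncl stand well above the others, and Ddx10 is the lowest; Nhp2 is not drawn.

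Levels per length ranged widely between members, as the plot of FPKM levels shows. Npm1, which encodes the nucleolar chaperone nucleophosmin, was the most abundant member with 291 ± 17.9 FPKM in DMSO and 358 ± 9.26 FPKM in ZJU-37 (SD, n = 3 libraries each). Ncl, which encodes nucleolin, an RNA-binding protein that acts in ribosomal RNA transcription and processing, followed with 244 ± 12.2 and 285 ± 9.78 FPKM. After these came Fbl, Pes1 and Nop56 with means over the 6 libraries of 74.5, 70.4 and 68.1 FPKM, close to one another. The lowest members were Polr1b, Utp20 and Ddx10 with 7.92, 6.78 and 6.26 FPKM.

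Box C/D snoRNPs guide the 2′-O-methylation of ribosomal RNA. Of their core proteins, Nop56, Nop58 and the methyltransferase fibrillarin (Fbl) are on the list, and all 3 passed the threshold and were higher with ZJU-37. A further core protein, Snu13, is not a member. It was tested among the other factors below and did not pass in edgeR. Nop58 lies on chromosome 9, from 66495832 to 66519788 of the plus strand (the genome build of the table is not given in the sources used here). Its level was 116, 119 and 109 CPM in DMSO and 142, 144 and 148 CPM in ZJU-37. The groups did not overlap, and the log2 fold change was 0.33 ± 0.06 (adjusted p = 0.0116, edgeR). Nop56, on chromosome 3 from 122803772 to 122808558 on the plus strand, had 119, 122 and 108 CPM in DMSO and 148, 149 and 138 CPM in ZJU-37. Replicate 3 was the lowest library of both groups, all ZJU-37 libraries lay above the DMSO libraries, and the log2 fold change was 0.32 ± 0.07 (adjusted p = 0.0230, edgeR). Fbl, on chromosome 1 from 85103519 to 85112619 on the plus strand, had 78.1, 83.4 and 80.4 CPM in DMSO and 99.5, 99.0 and 90.7 CPM in ZJU-37. These groups did not overlap either, with a log2 fold change of 0.26 ± 0.06 (adjusted p = 0.0373, edgeR). The annotated span of Fbl overlaps that of Dyrk1b on the same strand, which had 2754 counts in all against 10136 for Fbl, so that the count of Fbl is less certain. Nop56 missed the threshold without any 1 of the DMSO libraries or without ZJU-37 replicate 2 (adjusted p from 0.0518 to 0.0722, edgeR). Fbl missed it without each library other than ZJU-37 replicate 3 (adjusted p from 0.0693 to 0.109, edgeR).

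The 250 bases before the annotated start of these 3 genes are shown because the genes rose together (RefSeq, assembly GRCr8, 5′ to 3′ on the strand of the gene, in lower case because the window before the start holds no CACGTG).
Nop56, chr3:137929929-137930178, plus strand: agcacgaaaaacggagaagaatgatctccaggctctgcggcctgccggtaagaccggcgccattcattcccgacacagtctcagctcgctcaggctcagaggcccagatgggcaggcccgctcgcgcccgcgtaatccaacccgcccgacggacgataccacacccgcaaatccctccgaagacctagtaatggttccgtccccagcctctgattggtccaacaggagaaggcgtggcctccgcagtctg
Nop58, chr9:68614824-68615073, plus strand: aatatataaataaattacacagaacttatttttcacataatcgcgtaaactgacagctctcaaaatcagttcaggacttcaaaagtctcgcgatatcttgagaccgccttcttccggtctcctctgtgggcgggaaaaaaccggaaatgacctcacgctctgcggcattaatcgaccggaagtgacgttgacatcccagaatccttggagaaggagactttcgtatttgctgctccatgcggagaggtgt
Fbl, chr1:92597157-92597406, plus strand: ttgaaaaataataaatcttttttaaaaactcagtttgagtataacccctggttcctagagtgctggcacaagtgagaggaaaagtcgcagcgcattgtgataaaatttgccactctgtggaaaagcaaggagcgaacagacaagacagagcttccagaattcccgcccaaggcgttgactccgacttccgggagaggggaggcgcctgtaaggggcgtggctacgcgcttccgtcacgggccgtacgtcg
The windows had a GC content of 62.0%, 45.2% and 50.8%, in this order.

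Box H/ACA snoRNPs guide the conversion of uridine to pseudouridine. Of their 4 core proteins 0 passed the threshold in edgeR, DESeq2 or limma-voom, and 1, Nop10, was higher without adjustment. Dkc1, which encodes the pseudouridine synthase dyskerin, had 112, 110 and 112 CPM in DMSO and 125, 113 and 114 CPM in ZJU-37, a log2 fold change of 0.08 with a 95% interval from -0.06 to 0.22. For Gar1 the log2 fold change was 0.19 (interval from -0.01 to 0.39) and for Nop10 it was 0.18 (interval from 0.01 to 0.36). Both had adjusted p-values under 0.05 with the replicate block (0.0437 and 0.0452, edgeR).

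The fourth H/ACA core gene, Nhp2, gave no usable comparison. It had 5, 515 and 12 counts in DMSO and 25, 7 and 20 counts in ZJU-37. DMSO replicate 2 thus held nearly all of its counts. The fitted log2 fold change was -3.59 ± 1.64 (adjusted p = 0.214, edgeR) and turned to 0.69 without DMSO replicate 2. The table lists a gene described as the same H/ACA subunit, LOC103690013, on chromosome 10 from 37069344 to 37072733, on the same chromosome as Nhp2 (from 34975708 to 34979082), with 0 counts in every library. Reads that match both copies may not be assigned to either, and whether this moved the count of Nhp2 was not tested. Nhp2 is left out of the plots.

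**Figure D2:**
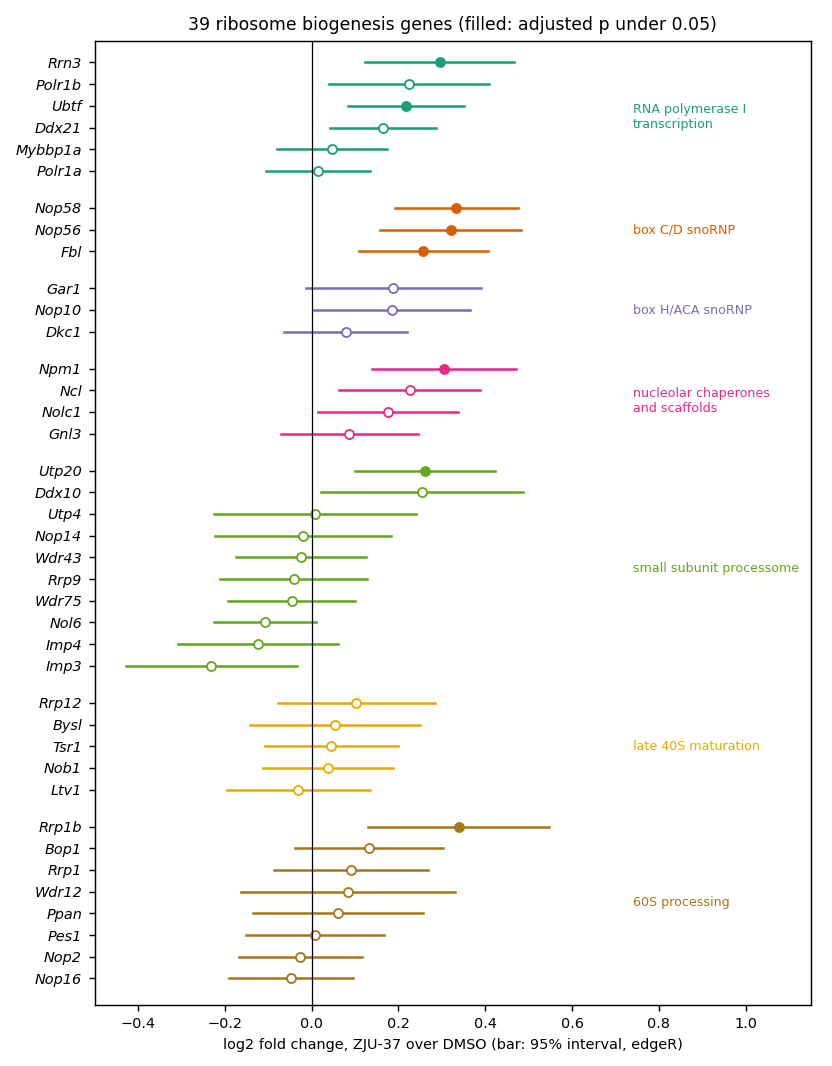
Log2 fold change (ZJU-37 over DMSO) of 39 members with 95% intervals from edgeR, grouped by role and ordered within each role; filled points have an adjusted p under 0.05. The 3 box C/D proteins on the list are all filled, whereas most of the small subunit processome lies around 0.

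Among the nucleolar chaperones and scaffolds, all 4 members had positive values and 1 passed. Npm1, on chromosome 10 from 18080950 to 18090950 of the minus strand, had 455, 499 and 452 CPM in DMSO and 564, 599 and 573 CPM in ZJU-37. The lowest ZJU-37 library was above the highest DMSO library, and the log2 fold change was 0.30 ± 0.07 (adjusted p = 0.0293, edgeR). Its call was lost without DMSO replicate 1 or 3 or without ZJU-37 replicate 2 or 3 (adjusted p from 0.0737 to 0.105, edgeR). Ncl had 657, 644 and 597 CPM in DMSO and 754, 747 and 718 CPM in ZJU-37. These groups did not overlap, but the test missed the threshold with a log2 fold change of 0.23 ± 0.07 (adjusted p = 0.0748, edgeR), and passed it with the replicate block (adjusted p = 0.00629) and with DESeq2 (adjusted p = 0.0347). Nolc1, which encodes a phosphoprotein that shuttles between the nucleolus and Cajal bodies, had 0.18 and an adjusted p-value of 0.142 (0.0353 with the block, edgeR). Unlike Ncl, it also missed the threshold with DESeq2 (adjusted p = 0.168). Gnl3, which encodes the GTP-binding protein nucleostemin, was at 0.09 (interval from -0.07 to 0.25).

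In the group for ribosomal DNA transcription all 6 members found had positive values and 2 passed. Rrn3 encodes the factor that joins RNA polymerase I to the promoter. On chromosome 10 from 3170742 to 3214655 on the plus strand, it had 35.6, 33.5 and 35.3 CPM in DMSO and 41.3, 45.7 and 41.1 CPM in ZJU-37. ZJU-37 replicate 2 was the highest library, all ZJU-37 libraries were above the DMSO libraries, and the log2 fold change was 0.29 ± 0.07 (adjusted p = 0.0379, edgeR). Ubtf encodes UBF, an HMG-box protein that keeps ribosomal genes open for transcription, and lies on chromosome 10 from 90250275 to 90265017 of the minus strand. It had 173, 167 and 168 CPM in DMSO and 205, 193 and 194 CPM in ZJU-37. This gap gave a log2 fold change of 0.22 ± 0.06 (adjusted p = 0.0459, edgeR), and the call was lost in all 6 fits with 1 library left out, with adjusted p-values from 0.0533 to 0.156. Rrn3 passed without ZJU-37 replicate 1 and missed the threshold without each of the other libraries (adjusted p from 0.0609 to 0.135, edgeR).

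The catalytic subunits of RNA polymerase I differed from each other in their estimates. Polr1a, the largest subunit, had 72.5, 72.4 and 72.6 CPM in DMSO and 73.6, 73.4 and 72.7 CPM in ZJU-37. Its log2 fold change was 0.01 with a 95% interval from -0.10 to 0.13. Polr1b had 28.1, 27.2 and 27.6 CPM in DMSO and 30.7, 35.0 and 31.2 CPM in ZJU-37, a log2 fold change of 0.22 (interval from 0.04 to 0.41, adjusted p = 0.108, and 0.0449 with the block, edgeR). The difference between the subunits was not tested. Ddx21, an RNA helicase that links transcription to processing, had 0.16 (adjusted p = 0.0819, and 0.0284 with the block, edgeR), and Mybbp1a, a nucleolar protein that binds the transcription factor MYB, had 0.05 with an interval from -0.08 to 0.17.

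**Figure D3:**
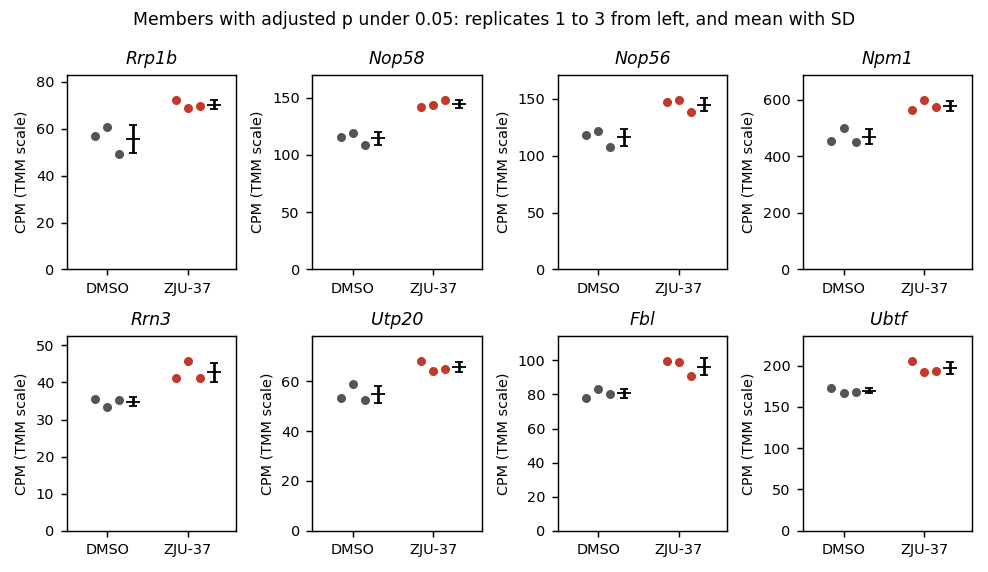
CPM in every library for the 8 members with an adjusted p under 0.05, with axes from 0, replicates 1 to 3 from left to right, and the mean with its SD (n = 3) beside each group. In each panel the 3 ZJU-37 libraries lie above the 3 DMSO libraries, by less than a doubling.

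The small subunit processome assembles on the nascent precursor RNA and was the group in which most values were at or below 0. Of its 10 members, 1 was higher and 0 were lower, 3 had positive and 7 negative log2 fold changes, and the median was -0.03. The member that passed was Utp20, a very large scaffold protein of the processome, on chromosome 7 from 29296963 to 29378080 of the minus strand. It had 53.2, 58.7 and 52.3 CPM in DMSO and 68.0, 64.1 and 64.7 CPM in ZJU-37. The log2 fold change was 0.26 ± 0.07 (adjusted p = 0.0471, edgeR), the highest adjusted p-value of the 8 calls. It missed the threshold in all 6 fits with 1 library left out (adjusted p from 0.0517 to 0.147, edgeR) and with DESeq2 (adjusted p = 0.0611). Ddx10, an RNA helicase of the same assembly, had 0.25 (adjusted p = 0.141, and 0.0440 with the block, edgeR). On the other side, Imp3, which binds the U3 snoRNA, had 37.8, 36.2 and 36.3 CPM in DMSO and 28.9, 30.6 and 34.3 CPM in ZJU-37. All ZJU-37 libraries were below the DMSO libraries, with a log2 fold change of -0.23 ± 0.08 (adjusted p = 0.117, and 0.0413 with the block, edgeR). Nol6 also did not overlap, with 104, 103 and 105 CPM in DMSO and 97.1, 97.0 and 95.2 CPM in ZJU-37, a log2 fold change of -0.11 (adjusted p = 0.212, and 0.137 with the block, edgeR). Imp4, the partner of Imp3, had -0.12 with an interval from -0.31 to 0.06. Utp4, Nop14, Wdr43, Wdr75 and the U3-binding protein gene Rrp9 had log2 fold changes between -0.05 and 0.01 and overlapping groups.

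The factors of late small subunit maturation, which act on the particle as it leaves the nucleolus, gave no call. Rrp12, Bysl, Tsr1, the endonuclease gene Nob1 and Ltv1 had log2 fold changes from -0.03 for Ltv1 to 0.10 for Rrp12, and in each the libraries of the groups overlapped. Of the 5 genes 0 passed in either direction in edgeR, also without adjustment, and 0 passed with DESeq2, with limma-voom or with the block. The widest interval upward was that of Rrp12, which reached 0.28.

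Of the 8 large subunit factors, 1 was higher and 0 were lower. Rrp1b encodes a nucleolar protein that binds chromatin. On chromosome 20 from 10844266 to 10869821 on the plus strand, it had 57.0, 60.7 and 49.1 CPM in DMSO and 72.2, 68.9 and 69.7 CPM in ZJU-37. DMSO replicate 3 was the lowest library, the groups did not overlap, and the log2 fold change was 0.34 ± 0.09 (adjusted p = 0.0452, edgeR), the largest among the members. The call held without DMSO replicate 2 and was lost without each of the other libraries (adjusted p from 0.0722 to 0.103, edgeR). Its paralog Rrp1 had 72.9, 65.3 and 62.3 CPM in DMSO and 72.8, 72.0 and 68.7 CPM in ZJU-37, with overlapping groups and 0.09 (interval from -0.09 to 0.27). Pes1, Bop1 and Wdr12 encode the PeBoW complex, which is needed to process the large subunit RNAs. Pes1 had 151, 151 and 139 CPM in DMSO and 139, 155 and 150 CPM in ZJU-37, a log2 fold change of 0.01 with an interval from -0.15 to 0.17. Bop1 had 0.13 (interval from -0.04 to 0.30) and Wdr12 had 0.08 (interval from -0.16 to 0.33). The span of Bop1 overlaps that of Mroh1 on the opposite strand, with 7368 counts in all against 10154 for Bop1, and the strand setting of the count is not given in the sources used here. Nop2, an RNA methyltransferase gene, Nop16 and Ppan had values from -0.05 to 0.06.

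Of the 32 members that did not pass, 16 had a 95% interval that lay within -0.25 and 0.25 on the log2 scale, so that larger changes lay outside the intervals of these genes. The intervals of the other 16 reached past one of these limits. Over the 39 members other than Nhp2, the summed level was 3932, 3977 and 3749 CPM in DMSO and 4283, 4411 and 4278 CPM in ZJU-37. In the pairs of same-numbered libraries, 19 of the 39 had a higher level under ZJU-37 in all 3 pairs and 4 a lower one in all 3. This count was not made over all tested genes, so that it has no background to be read against. The median difference of the 39 was 0.02 in the pair of replicate 1, 0.13 in that of replicate 2 and 0.11 in that of replicate 3. For the box C/D members these medians were 0.32, 0.27 and 0.36, and for the small subunit processome -0.08, -0.03 and 0.02.

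The E-box CACGTG, the sequence that MYC and related proteins bind, was looked for in the promoter windows of the members (250 bases before to 50 after the RefSeq start, GRCr8, a palindrome and so the same on both strands). Windows were matched by symbol for 38 of the 40 members, and 15 of them (39.5%) held the E-box. It was found in 6.42% of all 33469 windows and in 9.10% of the 10396 windows of tested genes. Among the members higher with ZJU-37, 2 of 8 windows held it, Fbl and Utp20, and among those that did not pass, 13 of 30. By role it was present in 4 of 5 windows for late small subunit maturation and in 1 of 6 for RNA polymerase I transcription. The 16 E-boxes started between 184 bases before and 39 bases after the start, and 13 of them within 150 bases of it. Below are windows of 30 bases for both higher members and for some that did not pass, with the E-box in capitals, to show the bases around it.
Fbl, chr1:92597416-92597445, plus strand: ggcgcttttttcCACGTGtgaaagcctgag
Utp20, chr7:25102959-25102988, minus strand: cagcactagctaCACGTGagaaaaagcaga
Pes1, chr14:83074284-83074313, plus strand: ccctaagcggggCACGTGcggtaggaagta
Gnl3, chr16:6219790-6219819, minus strand: agttccagttcgCACGTGgcgcccgagacg
Nol6, chr5:61066289-61066318, minus strand: ggcgtttaggccCACGTGgggagctacggg
Dkc1, chrX:157751455-157751484, plus strand: agcgtcccggcgCACGTGcgggccccaccc
Mybbp1a, chr10:57555290-57555319, plus strand: gcagtttctacaCACGTGtgcgagcacagg
Mybbp1a, chr10:57555445-57555474, plus strand: gtctttcgagccCACGTGtttggttcagca
Ltv1, chr1:9398601-9398630, minus strand: gacctgtctaccCACGTGtagagctgccgg
Mybbp1a was the member with more than 1 E-box. A match describes these letters and says nothing of binding.

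**Figure D4:**
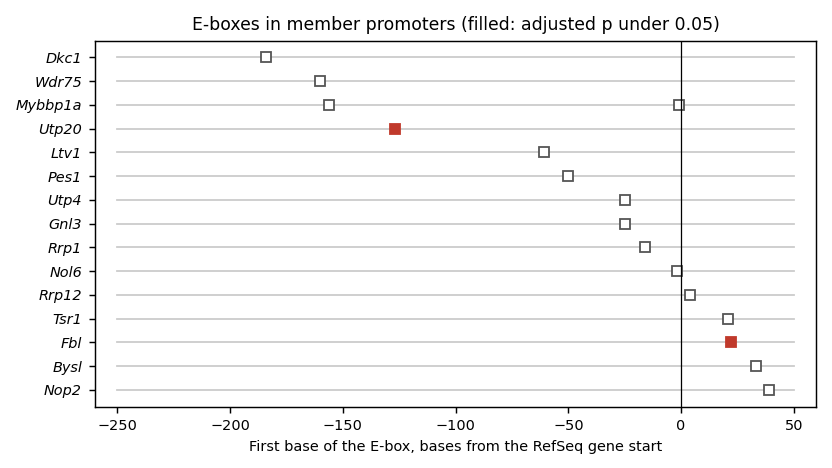
Position of each E-box in the promoter windows of the 15 members that hold it, in bases from the RefSeq gene start; filled squares are members with an adjusted p under 0.05. Fbl and Utp20 are filled, and most squares lie near the start, up to 39 bases after it.

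In lists of other factors for RNA polymerase I, snoRNP assembly and both subunits, 9 of 109 tested genes were higher and 1 was lower, and 14 were higher and 6 lower with the block. The share of higher genes, 8.26%, was near the background of 9.43%, while their median log2 fold change of 0.06 was close to that of the members, with 77 positive and 32 negative values. All ZJU-37 libraries lay above all DMSO libraries in 28.4% of these genes, beside 19.0% of all tested genes. By list, 2 of 15 RNA polymerase I factors and 2 of 10 genes for snoRNP assembly were higher. For the small subunit it was 2 of 39 genes and for the large subunit 3 of 45. Polr2f, a subunit shared by the RNA polymerases, rose with a log2 fold change of 0.41 (adjusted p = 0.00429), and Tcof1, which encodes the nucleolar protein treacle, with 0.38 (adjusted p = 0.0182, both edgeR). Polr1d, a subunit shared by RNA polymerases I and III, fell by 0.27 on the log2 scale (adjusted p = 0.0250, edgeR). Pdcd11, a processome factor, rose by 0.28, and the helicase genes Ruvbl2 and Ruvbl1, which act in snoRNP assembly, by 0.29 and 0.28 (adjusted p = 0.0178, 0.0245 and 0.0399, edgeR). Tbl3, another processome factor, rose by 0.24, and the large subunit factors Pwp1, Tex10 and Rbm28 by 0.34, 0.33 and 0.26 (adjusted p = 0.0431, 0.0494, 0.0403 and 0.0410, edgeR). With 1 library left out, Polr2f passed in all 6 fits, Tcof1, Ruvbl2 and Pdcd11 in 3, Tex10 in 2, Polr1d and Rbm28 in 1, and Ruvbl1, Tbl3 and Pwp1 in 0. Of the RNA exosome, which trims ribosomal RNA ends, 3 of 14 genes were higher and 1 was lower. Exosc8, Exosc9 and Exosc2 rose with log2 fold changes of 0.64, 0.48 and 0.34, and Exosc5 fell by 0.44 (adjusted p = 0.00463, 0.00800, 0.0256 and 0.0210, edgeR). Exosc8 and Exosc9 passed in all 6 fits with 1 library left out, and Exosc2 and Exosc5 in 1.

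Of 65 tested genes for cytosolic ribosomal proteins, 0 passed in edgeR, with 8 higher and 0 lower without adjustment, 2 higher with DESeq2 and 1 with limma-voom. With the block 19 were higher and 1 was lower. Their median log2 fold change was 0.11, and their summed level ran from 26839 to 30582 CPM in DMSO and from 29228 to 32261 CPM in ZJU-37. Ribosomal protein genes have many near-identical copies in the genome, and 4 of those found (Rpl10a, Rpl23a, Rpl35a and Rpl39) had 0 counts in at least 1 library, so that these counts are uncertain. Of 22 RNA polymerase III genes 0 passed in edgeR, DESeq2 and limma-voom (3 higher and 3 lower without adjustment), and 3 were higher and 2 lower with the block. Of 6 RNA polymerase II subunits 0 passed in these tools (1 higher and 0 lower without adjustment), and 1 was higher with the block.

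**Figure D5:**
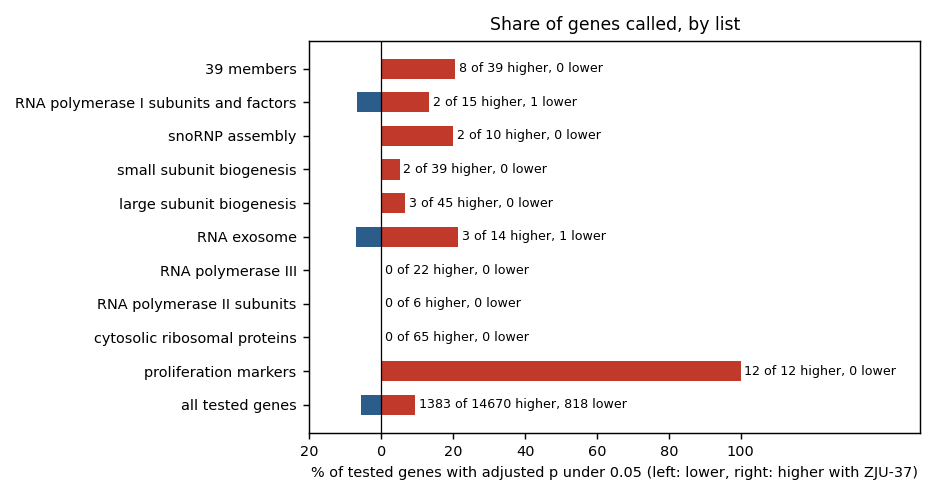
Share of the tested genes of each list with an adjusted p under 0.05, as bars to the right for genes higher and to the left for genes lower with ZJU-37, with the counts beside them. The members (8 of 39 without Nhp2), the RNA exosome (3 of 14), snoRNP assembly (2 of 10) and other RNA polymerase I factors (2 of 15) lie above the share of all tested genes. Ribosomal proteins and RNA polymerases II and III have no bar, and the proliferation markers reach 12 of 12.

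Of 10 genes of the MYC network, which includes activators of this pathway, 2 were higher and 2 were lower in edgeR. It was 1 higher and 3 lower with DESeq2, 1 and 2 with limma-voom, and 2 and 4 with the block. Mycn rose from 13.3 ± 0.324 to 18.9 ± 1.89 CPM (SD, n = 3 libraries each), by 0.51 on the log2 scale (adjusted p = 0.0213, edgeR). Myc had 68.4 ± 4.29 and 77.4 ± 2.06 CPM, a log2 fold change of 0.18 that did not pass (adjusted p = 0.132, edgeR). Mxd1 and Mxd4, which encode partners of MAX that oppose MYC, fell by 0.64 and 0.44 on the log2 scale, whereas their relative Mxd3 rose by 0.25 (adjusted p = 0.00318, 0.0112 and 0.0472, edgeR). With 1 library left out, Mxd1 passed in all 6 fits, Mxd4 in 5, Mycn in 2 and Mxd3 in 0.

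Other contents of the cultures moved with the groups, and their part in the results above was not tested. All 12 proliferation markers rose, with a summed level from 1128 to 1199 CPM in DMSO and from 2422 to 2945 CPM in ZJU-37. Mki67 rose by 1.32 on the log2 scale (adjusted p = 5.21e-04, edgeR). Of 9 markers of differentiated oligodendrocytes 4 fell in edgeR and 7 with DESeq2 or with the block, and their sum ran from 12967 to 24590 CPM in DMSO and from 5088 to 10220 CPM in ZJU-37. Of 8 precursor markers 4 rose and 3 fell, with all 8 detected in every library and sums from 4041 to 4674 and from 4465 to 6144 CPM. Of 7 astrocyte markers 1 was lower, and 4 with the block. Their sum was 1401, 988 and 1603 CPM in DMSO and 1050, 856 and 1298 CPM in ZJU-37, lower in each same-numbered pair. Of 10 microglia markers 0 passed in edgeR, DESeq2 and limma-voom, also without adjustment, and 4 were lower with the block. Their sum was 2116, 3636 and 2692 CPM in DMSO and 1521, 3116 and 2199 CPM in ZJU-37, again lower in each pair. Of 7 neuron markers 1 was higher, and with the block 1 was higher and 3 were lower (sums from 308 to 426 and from 335 to 408 CPM). Fibroblast and endothelial markers were low, with sums from 38.9 to 76.3 and from 22.2 to 59.0 CPM, Cldn5 at 0 counts in at least 1 library, 0 of 4 tested past the threshold in edgeR, DESeq2 and limma-voom, also without adjustment, and 1 lower with the block. In such bulk RNA, fewer cells of a type and less RNA per cell cannot be told apart. Poly-A RNA holds mRNA and not the ribosomal RNA, so that the output of RNA polymerase I itself was not measured.

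Some members also host snoRNA genes in their introns. The table lists 23 snoRNA genes inside 7 members, 5 each in Nop56 and Nop58, 3 each in Ncl, Gnl3 and Wdr43, and 2 each in Ppan and Tsr1. These had 0 to 227 counts over all 6 libraries, 966 in all, and poly-A selection does not retain most snoRNAs, so that they were not compared between groups.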

How the data were processed

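The authors aligned reads with HISAT2 2.0.5 and deposited raw counts per gene from featureCounts 1.5.0 (tools from the submitters' processing notes) for 3 DMSO and 3 ZJU-37 libraries. The deposited FPKM, which the authors derived from counts and gene length, served for levels between genes and as an alternative. The authors' own fold changes and p-values were not used, and the genome build is not given in the sources used here. Members were matched by gene name, and other lists also by older symbols.

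Counts were filtered (filterByExpr), TMM-scaled and fitted for all 6 libraries by robust quasi-likelihood in edgeR 4.0.16 (R 4.3.3), with Benjamini-Hochberg adjustment over 14670 genes and 95% intervals. Standard errors were derived from the fold change and its F statistic. The code was first tested on simulated data. Alternatives used DESeq2 1.42.0, limma 3.58.1, other scalings and filters, the replicate block, an adjusted p-value under 0.01 and leaving out each library.

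The sample titles number the replicates 1 to 3 in both groups. Over genes, departures from the group mean correlated with r = 0.39, 0.31 and 0.33 for libraries of the same number and from -0.27 to -0.01 for the others, so the numbers were taken to pair the libraries. Libraries of a group differed by at least 11.9 in chi-square per degree of freedom, and none was a duplicate. A count of 3 equals at most 0.215 CPM, which covers counting error only. Members and lists were taken by gene name, with no measured threshold, but with earlier results of these data known. Values per library were set for members that passed and the 5 most abundant, and other lists were limited to genes that passed, plus Myc, Mycn and Mki67. Dkc1, Polr1a, Polr1b, Imp3, Nol6 and Rrp1 were given per library, and LOC103690013 and Snu13 named, after values were seen.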

Additional observations from a re-analysis of the deposited data

How the results depend on the processing

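The 8 members higher and 0 lower at an adjusted p-value under 0.05 became 15 higher and 1 lower with the replicate block, 5 higher with RLE size factors and 5 with upper quartile factors, 4 with limma on log2(FPKM + 1) and 4 on log2(FPKM + 0.1), and 0 at an adjusted p-value under 0.01. With DESeq2, limma-voom, library size only, no filter or at least 10 counts in every library it stayed between 6 and 8. Without 1 library the number was from 1 to 4, with 0 lower. Over all tested genes, 1383 higher and 818 lower became 2371 and 2334 with the replicate block and 739 and 314 at an adjusted p-value under 0.01, and ran from 858 to 1259 and from 374 to 668 without 1 library. The median log2 fold change of the members kept its sign in all fits (from 0.06 to 0.11 without 1 library). The 8 called members kept a positive sign in every fit, and of these refits 75 passed the threshold and 53 missed it. A sign changed only for members that did not pass: with library size only, Nop14 had 0.010, Ltv1 1.08e-04, Nop2 0.0033 and Wdr43 0.0043. Without 1 library, Bysl ran from -0.019 to 0.11, Ltv1 from -0.064 to 0.016, Nhp2 from -4.15 to 0.69, Nop14 from -0.087 to 0.048, Nop16 from -0.057 to 0.0029, Nop2 from -0.050 to 0.020, Pes1 from -0.030 to 0.068, Rrp9 from -0.086 to 0.013, Utp4 from -0.048 to 0.093 and Wdr43 from -0.030 to 0.040. The cause of these differences was not tested. With the library size alone as the scale, the median of all genes moved from -0.03 to 0.0029.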

Other observations

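Genes next to Nhp2 also had counts that varied widely between libraries of a group. Rmnd5b, the neighbour on chromosome 10 from 34979923 to 34990943, had 130, 5 and 38 counts in DMSO and 39, 198 and 134 counts in ZJU-37, so that it was lowest in the library in which Nhp2 was highest. Hnrnpab, from 34955716 to 34961608, had 419, 1234 and 1111 counts in DMSO and 218, 184 and 697 counts in ZJU-37. These genes were chosen after their values were seen.

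The E-box was also less frequent in promoter windows of the ribosomal proteins themselves than in those of the factors that build the ribosome. It was in 5 of 62 windows for cytosolic ribosomal proteins (8.06%) and in 24 of 99 windows for the other ribosome biogenesis genes (24.2%), beside 39.5% of the member windows. These shares are descriptions of the reference sequence and were not tested.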
